A study of Schizosaccharomyces pombe with 30 samples.

Results

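Fission yeast cells (Schizosaccharomyces pombe) carrying the prp16DAmP allele were compared after a shift to 37 °C and after a shift to 16 °C. All arrays titled prp16DAmP with 1 of these temperatures and no second mutation were taken, which gave 6 of the 30 arrays of the series, 3 at 37 °C and 3 at 16 °C. On each array RNA of the mutant, labelled with Cy5, was set against RNA of a wild-type strain, labelled with Cy3, and both had undergone the same shift from growth at 30 °C in YES5 medium. The shift to 37 °C lasted 2 hours and the shift to 16 °C lasted 9 hours, so temperature and length of the shift cannot be told apart. The dyes were not swapped, and the labels do not say that the arrays of a group came from separate cultures. The p-values here thus speak of the spread among arrays within groups, pooled over all 30 arrays, which may be technical. Each value is a log ratio of mutant over wild type, read as log2 (no label or header states the base), and each difference is the value at 37 °C minus the value at 16 °C. A change of the wild-type cells between the temperatures is therefore part of every difference.

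Prp16 is an ATPase of the spliceosome that, as known from budding yeast, remodels the complex between the branching step and the joining of the exons. A DAmP allele carries an insertion behind the stop codon that is made to destabilise the mRNA, so that an essential gene can be studied at a lowered dose. Fission yeast is a common model for splicing, because many of its genes have introns, most of them short. Temperature shifts are often used to bring out weak defects of the splicing machinery.

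The arrays measured 5069 genes by 1 exon feature each, taken here as the transcript level, and 4651 exon-exon junctions, which mark spliced RNA. They also measured 4836 introns, which mark RNA that holds intron sequence, at whatever step of splicing. The splicing index of an intron is its intron feature minus the exon feature of its gene, and it was available for 4821 introns. A higher index can come from more intron signal or from less exon signal. A feature was called where its difference had a Benjamini-Hochberg adjusted p of at most 0.05 over all features of its kind in a limma fit on all 30 arrays, and each error after ± is the standard error of that fit, with n = 3 arrays per group.

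The 6 arrays, like 11 others, differed from 13 arrays of the series in a way that touches every result below. Across 2269 genes with both kinds of feature, the exon feature correlated with the mean junction feature of the same gene with r = 0.0376, 0.0813 and 0.0513 on the 37 °C arrays and 0.152, 0.120 and 0.165 on the 16 °C arrays. On 13 arrays of other groups this r was 0.383 to 0.664, and on 11 further arrays it was 0.069 to 0.201. These 11 were all arrays of the double mutants with prp16DAmP, and arrays without that allele. The latter were those of swr1∆ at 37 °C (0.201, 0.117 and 0.127) and replicate 3 of usp107DAmP (0.099) and of pht1∆ usp107DAmP (0.076) at 30 °C. Neighbouring junctions of 1 gene correlated with r = 0.025 to 0.064 at 37 °C and 0.067 to 0.084 at 16 °C, against 0.323 to 0.636 on those 13 arrays. Genes are not independent replicates in these correlations. Features of 1 gene thus mostly did not move together on the 6 arrays, and the part of this in the results was not tested, so the junctions of a gene are given beside its exon feature. Whether a feature ID stands for the same probe on all arrays was not tested, so each value below belongs to a named gene only as far as the deposited IDs do.

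**Figure D1:**
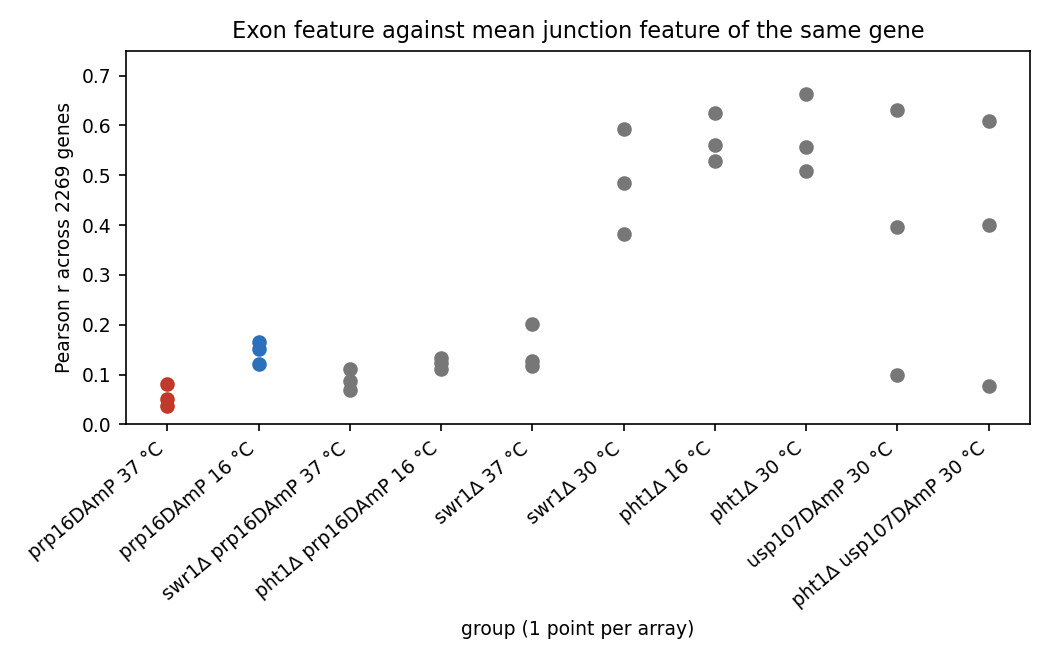
Correlation across 2269 genes between the exon feature and the mean junction feature of the same gene (vertical axis, Pearson r), with 1 point per array and 1 column per group. All points of prp16DAmP lie below 0.2, at 37 °C (red) and at 16 °C (blue), whereas 13 of the grey points of other groups lie at 0.383 or above.

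Exon features did repeat between arrays. Across genes, r was 0.559 to 0.658 between the 37 °C arrays, 0.416 to 0.745 between the 16 °C arrays, and 0.029 to 0.335 between an array of one temperature and an array of the other. The values were spread more widely in the cold, with an SD over exon features of 0.134 to 0.149 at 37 °C and 0.25 to 0.3 at 16 °C. The lowest correlation of any of the 6 arrays with any array of the series was -0.342, between replicate 2 at 16 °C and replicate 3 of swr1∆ at 37 °C, and the direction was kept because the labels state the dyes.

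The exon feature of prp16 itself did not separate the temperatures. It read -0.16, -0.26 and -0.16 at 37 °C and 0.01, 0.20 and -0.64 at 16 °C, with overlapping groups and a difference of -0.05 ± 0.28 (adjusted p = 0.963). Against wild type it was not called at 37 °C (adjusted p = 1) or at 16 °C (adjusted p = 0.656), so this feature does not check the allele, and its position relative to the insertion is unknown here. The same feature read -0.26, -0.31 and -0.80 in swr1∆ at 37 °C, which does not carry the allele.

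Of the 5069 transcripts, 57 were higher and 48 were lower at 37 °C than at 16 °C, relative to wild type. These are 2.07% of all transcripts, and 813 had an unadjusted p under 0.05. In 99 of the 105 called transcripts (94.3%) the departure from wild type was larger at 16 °C, against 73.8% of all transcripts. The median size of the log2 ratio of the called transcripts was 0.128 at 37 °C and 0.479 at 16 °C. In 58 of the 105 all arrays of one temperature lay above 0 and all of the other below it, as in 9.13% of all transcripts. The calls rest on these same values, and the exon features were spread more widely at 16 °C. These shares are therefore a description and not separate support.

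**Figure D2:**
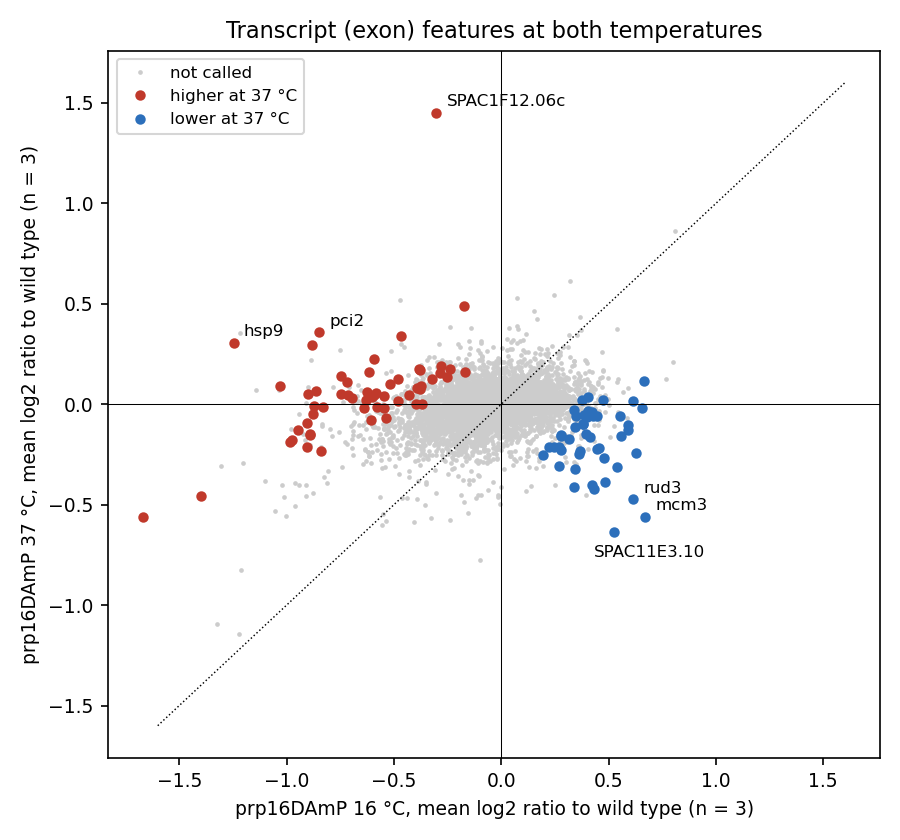
Mean log2 ratio to wild type of every transcript at 37 °C (vertical axis) and at 16 °C (horizontal axis), n = 3 arrays each, with called transcripts in colour and a dotted line of equal values. Called transcripts spread along the horizontal axis, and SPAC1F12.06c stands apart at 1.45 at 37 °C.

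The largest difference was that of SPAC1F12.06c, annotated as a DNA repair endonuclease. It read 1.89, 1.23 and 1.24 at 37 °C and -0.47, -0.09 and -0.34 at 16 °C, a difference of 1.76 ± 0.28 (adjusted p = 0.00184). It was 1 of the 6 called transcripts whose departure from wild type was larger at 37 °C. Its only junction read 0.06, 0.03 and 0.30 at 37 °C and 0.09, 0.36 and -0.14 at 16 °C, and its difference of 0.03 ± 0.13 was not called (adjusted p = 0.964).

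hsp9, which encodes a heat shock protein of the plasma membrane, read 0.08, 0.21 and 0.63 at 37 °C and -1.5, -1.03 and -1.21 at 16 °C. The groups did not overlap, and the difference was 1.55 ± 0.36 (adjusted p = 0.0281). pci2, which encodes a subunit of the TREX and TREX-2 complexes of mRNA export, read 0.39, 0.13 and 0.55 at 37 °C and -0.90, -0.60 and -1.05 at 16 °C, a difference of 1.21 ± 0.19 (adjusted p = 0.00184). Its 4 junctions did not follow its exon feature: their differences were -0.58, 0.43, -0.05 and -0.02, none of them called.

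ubc4 was the called transcript whose junctions were called too. It encodes a ubiquitin-conjugating enzyme. The exon feature read 0.02, -0.01 and 0.25 at 37 °C and -1.27, -0.82 and -1.01 at 16 °C, a difference of 1.12 ± 0.30 (adjusted p = 0.0492). Its junction 1-2 read 0.10, 0.08 and 0.18 at 37 °C and -1.25, -0.80 and -0.66 at 16 °C, a difference of 1.02 ± 0.23 (adjusted p = 0.0265). Its junction 2-3 read -0.17, -0.16 and 0.30 at 37 °C and -1.45, -0.69 and -0.82 at 16 °C, a difference of 0.98 ± 0.23 (adjusted p = 0.0386). All 3 features thus sat near wild type at 37 °C and far below it at 16 °C, and the groups overlapped in none of them. The exon feature and 1 of the 3 junctions of myr1, the gene of N-myristoyltransferase, were also called, at 0.40 ± 0.11 and 1.08 ± 0.22.

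Other transcripts among the 10 that were most increased included pgk1, the phosphoglycerate kinase of glycolysis, at 0.93 ± 0.20. The ribosomal protein genes rpl3201, rps2802 and rpl3601 were among them too, at 1.18 ± 0.31, 0.95 ± 0.21 and 0.89 ± 0.19. SPMIT.11 and SPMIT.10, also among the 10, are given by their IDs, since they were matched to no gene name here. SPMIT.11 read -0.49, -0.53 and -0.66 at 37 °C and -1.47, -1.24 and -2.30 at 16 °C, and its difference was 1.11 ± 0.30 (adjusted p = 0.049). These 2 features lay below wild type on all 6 arrays, only less so at 37 °C.

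Among the transcripts that were lower at 37 °C, mcm3, which encodes a subunit of the MCM replicative helicase, showed the largest difference. It read -0.70, -0.48 and -0.49 at 37 °C and 0.66, 0.82 and 0.53 at 16 °C, a difference of -1.23 ± 0.31 (adjusted p = 0.039). SPAC11E3.10, annotated as a membrane protein of the ER or Golgi, read -0.69, -0.58 and -0.64 at 37 °C and 0.44, 0.59 and 0.56 at 16 °C (difference -1.16 ± 0.24, adjusted p = 0.0117). rud3, the gene of a golgin, read -0.56, -0.48 and -0.39 at 37 °C and 0.64, 0.83 and 0.36 at 16 °C (difference -1.09 ± 0.23, adjusted p = 0.0151). These 3 genes were below wild type at 37 °C and above it at 16 °C on every array.

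The same held for other strongly decreased transcripts. Among them were prz1, the calcineurin-responsive transcription factor (-0.87), set8, a lysine methyltransferase (-0.87), tms1, a hexitol dehydrogenase (-0.86), mug68 (-0.85), elp2, a subunit of the Elongator complex that modifies tRNAs (-0.83), and pdp3, a PWWP domain protein (-0.75). elp2 read -0.45, -0.45 and -0.31 at 37 °C and 0.57, 0.43 and 0.27 at 16 °C (adjusted p = 0.00184). Its 2 junctions, at 0.12 and 0.03, were not called.

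**Figure D3:**
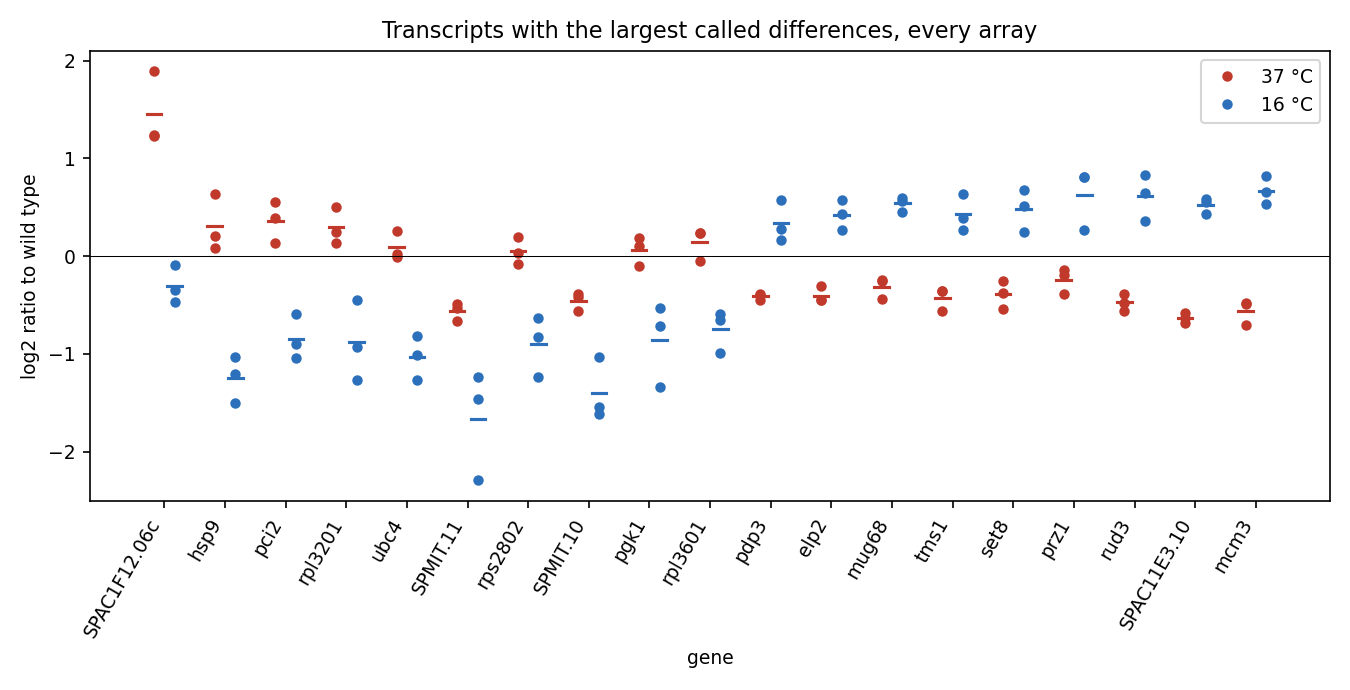
Log2 ratio to wild type (vertical axis) of the called transcripts with the largest increases and decreases that are named in the text, on each array, with 37 °C in red, left of 16 °C in blue; bars are means of 3 arrays. The groups overlap for none of these genes, and the decreased genes are below 0 at 37 °C and above 0 at 16 °C.

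The calls depended on single arrays. Leaving out 1 of the 6 arrays at a time left 10 to 92 called transcripts, the fewest without replicate 1 of 37 °C and without replicate 1 of 16 °C (10 each), then 14 without replicate 3 of 37 °C and 31 without replicate 2 of 37 °C. Only 7 of the 105 were called in all 6 of these fits, namely SPAC1F12.06c, pci2, elp2 and 4 that were picked out after their values were seen. Of these 4, rhb1, which encodes the Rheb GTPase of the TOR pathway, read -0.06, -0.04 and -0.05 at 37 °C and -0.89, -0.76 and -0.98 at 16 °C (difference 0.83 ± 0.14). SPBC12D12.14 was also higher at 37 °C, at 0.82 ± 0.13. asa1, the gene of an ASTRA-associated protein, was lower at -0.67 ± 0.12, and dbl4, annotated as a ubiquitin ligase, at -0.61 ± 0.11. Setting each array's median exon feature to 0 turned the split of 57 higher and 48 lower into 34 higher and 69 lower.

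The junctions of the called transcripts are set beside them here. The 28 genes with junctions among the higher transcripts had 55 junctions, of which 34 were above 0, 21 were below 0 and 3 were called. The 25 such genes among the lower transcripts had 62 junctions, of which 30 were above 0, 32 were below 0 and 0 were called by limma. Over all 4651 junctions, 52.7% were above 0, 0.817% were called and 565 had an unadjusted p under 0.05. The 0 of 62 lies near the called share and is not read as a result. Across 2269 genes, the difference of the exon feature and the mean difference of the junctions correlated with r = 0.17, given as a description.

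Cytosolic ribosomal protein genes were the largest group among the called transcripts of the gene lists. Ribosomal proteins are the building blocks of the 2 ribosomal subunits, and many of their genes in fission yeast carry a promoter element called the HomolD box. Of 138 measured genes, 11 were higher and 0 lower at 37 °C (7.97%, against 1.12% of all transcripts called higher and 0.947% called lower), and 68 had an unadjusted p under 0.05. The difference was above 0 in 117 of the 138, with a median of 0.37, against 0.05 over all transcripts. The median log2 ratio of the 138 was 0.00446, -0.0392 and 0.00585 on the 37 °C arrays and -0.44, -0.32 and -0.36 on the 16 °C arrays. The median ribosomal protein transcript was thus close to wild type on each array at 37 °C and below it on each array at 16 °C.

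Both subunits showed this. Of the 83 large-subunit genes, 7 were higher, with a median difference of 0.35, and of the 55 small-subunit genes, 4 were higher, with a median of 0.39. rps502, of the small subunit, read 0.15, 0.15 and 0.19 at 37 °C and -0.71, -0.53 and -0.62 at 16 °C, a difference of 0.78 ± 0.15 (adjusted p = 0.00675). rpl2801, of the large subunit, read 0.03, -0.03 and 0.13 at 37 °C and -0.57, -0.55 and -1.02 at 16 °C, a difference of 0.76 ± 0.14 (adjusted p = 0.00675). rps403 and rps1401, of the small subunit, were called at 0.60 ± 0.15 and 0.48 ± 0.12. rpl3601 and rpl3602, near-identical copies of the L36 gene whose signals the probes may share, were both called, at 0.89 and 0.64. Values at 37 °C did not overlap values at 16 °C in 102 of the 138 genes (73.9%), against 36.5% of all transcripts.

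Their junctions gave a like picture. Of 69 junctions in 65 ribosomal protein genes, 60 (87.0%) had a difference above 0, against 52.7% of all junctions, and their median was 0.31, against 0.01. Those of rpl31, rpl35 and rpp103 were called higher and 0 were called lower, against 0.409% of all junctions called in each direction. Of the 84 introns of the ribosomal protein genes, 40 were above and 44 below 0, with a median of -0.00731. Leaving out 1 array at a time left between 1 and 9 of the 138 transcripts called higher and 0 lower, the fewest without replicate 3 of 37 °C or replicate 1 of 16 °C (1 each), then 2 without replicate 1 and 4 without replicate 2 of 37 °C, with a median difference of 0.33 to 0.39.

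**Figure D4:**
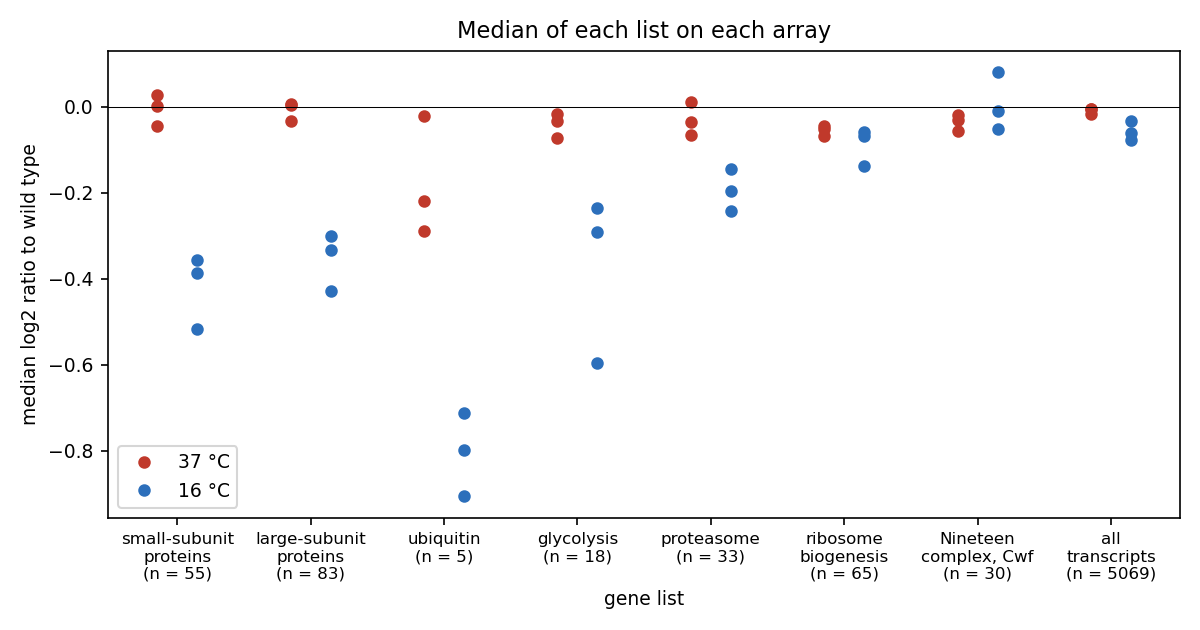
Median log2 ratio to wild type over the genes of each list (vertical axis), 1 point per array, with 37 °C in red, left of 16 °C in blue. The medians of both ribosomal subunits lie between -0.05 and 0.03 at 37 °C and between -0.52 and -0.30 at 16 °C, and the median of all transcripts lies between -0.08 and 0 on every array.

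The promoters of called genes are shown because the HomolD box is the element most of these genes share. The box was searched as CAGTCACA, and as TGTGACTG for the other strand, in the 300 bases before the annotated start of each gene in assembly ASM294v3. It occurred before 134 of 4964 genes (2.70%), before 88 of the 138 ribosomal protein genes (63.8%), before 6 of the 11 that were called, and before 1 of the 48 called lower. The stretches below are read along the strand of the gene with the match in capitals. They lie at II:4351809-4351856 (plus strand, rpl3201), II:3196386-3196433 (plus strand, rpl2801), II:4009422-4009469 (minus strand, rpp102), III:1437046-1437093 (plus strand, rpl6) and I:3108912-3108959 (minus strand, ubi5).
rpl3201: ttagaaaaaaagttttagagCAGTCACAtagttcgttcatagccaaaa
rpl2801: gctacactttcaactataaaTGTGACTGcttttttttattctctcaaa
rpp102: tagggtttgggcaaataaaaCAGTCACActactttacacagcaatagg
rpl6: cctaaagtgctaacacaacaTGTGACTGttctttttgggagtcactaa
ubi5: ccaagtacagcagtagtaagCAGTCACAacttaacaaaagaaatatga
The 46 genes that hold a match and encode no ribosomal protein of the list had a median difference of 0.12. A match is a description of these letters and not a measurement of binding.

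Ubiquitin, whose genes in part encode fusions to ribosomal proteins, had a difference above 0 in all 5 measured genes, of which 2 were called. Over all transcripts, 60.1% were above 0 and 1.12% were called higher. ubi5, a fusion to a small-subunit protein, read -0.25, -0.12 and -0.02 at 37 °C and -1.13, -0.77 and -0.94 at 16 °C, a difference of 0.82 ± 0.16 (adjusted p = 0.0117). ubi1, a fusion to a large-subunit protein, differed by 0.69 ± 0.17 (adjusted p = 0.0352). The 5 genes had a median difference of 0.47, and 0.12 after all arrays were scaled to equal spread. Without replicate 3 of 37 °C or replicate 1 of 16 °C 0 of the 5 were called, and 1 was called without replicate 1 or 2 of 37 °C or replicate 2 of 16 °C.

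Glycolysis had 2 of 18 genes higher and 0 lower, with a median difference of 0.37 and 15 of 18 genes above 0, against 1.12% of all transcripts called higher and 60.1% above 0. fba1, the gene of fructose-bisphosphate aldolase, read 0.12, 0.09 and 0.12 at 37 °C and -0.75, -0.41 and -1.0 at 16 °C (difference 0.83 ± 0.19, adjusted p = 0.0257). Without replicate 1 of 37 °C, replicate 2 of 37 °C, replicate 1 of 16 °C or replicate 3 of 16 °C 0 glycolysis genes were called, 1 was called without replicate 3 of 37 °C, and the median without replicate 3 of 16 °C was 0.20.

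Heat shock and chaperone genes had 2 of 29 higher, hsp9 and cct7, a subunit of the chaperonin that folds actin and tubulin (0.37 ± 0.10, adjusted p = 0.0468), and 0 lower, with a median difference of 0.15. The 37 genes of the stress response list had 1 higher, hsp9, and 1 lower, tms1. Over all transcripts, 1.12% were called higher and 0.947% lower, and the counts of these lists are read against these shares without a test. Genes of ribosome biogenesis had 2 of 65 higher and 2 lower, with a median of 0.02. rpa43, a subunit of RNA polymerase I, and rrp5, a factor of the U3 snoRNP, were higher at 0.81 ± 0.21 and 0.56 ± 0.13, and utp14 and rrp9, also of the U3 snoRNP, were lower at -0.67 ± 0.16 and -0.44 ± 0.11.

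Of 33 proteasome transcripts, 0 were called by limma, against 2.07% of all transcripts. By limma, 8 of them had an unadjusted p under 0.05 (24.2%, against 16.0% of all transcripts). The difference was above 0 in 28 (84.8%, against 60.1% of all transcripts), with a median of 0.13. Of the 41 junctions of the list, 2 were called higher, against 0.409% of all junctions called higher. Junction 2-3 of pup2 read -0.02, -0.09 and 0.05 at 37 °C and -0.75, -0.62 and -0.63 at 16 °C (difference 0.65 ± 0.09, adjusted p = 0.00106), while its exon feature differed by -0.13 ± 0.14. Junction 1-2 of pre8 differed by 0.70 ± 0.16 (adjusted p = 0.0295) and its exon feature by 0.40 ± 0.15 (adjusted p = 0.163). Of 49 mitochondrial ribosomal protein genes, 1 was higher, mrpl50 (0.64 ± 0.13, adjusted p = 0.0117), beside 1.12% of all transcripts called higher.

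The genes of the splicing machinery are given by their lists, beside 2.07% of all transcripts called and 16.0% of all with an unadjusted p under 0.05. Of 7 spliceosomal helicase genes, 0 were called by limma and 2 (28.6%) had an unadjusted p under 0.05. prp22, the helicase that releases the spliced mRNA, came closest, with -0.18, -0.09 and -0.05 at 37 °C and 0.41, 0.42 and 0.46 at 16 °C, a difference of -0.53 ± 0.15 (adjusted p = 0.0516). The groups of prp28 (-0.27 ± 0.11) did not overlap either, as in 36.5% of all transcripts. Those of uap56 (-0.09 ± 0.17), prp11 (-0.08 ± 0.12), prp43 (0.05 ± 0.14) and brr2 (0.07 ± 0.08) did overlap. The signs of uap56 and prp43 turned when the arrays were scaled to equal spread, at 0.06 and -0.13.

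Of the 5 factors of the second step, 0 were called as transcripts by limma and 2 (40%) had an unadjusted p under 0.05. Beside prp16 and prp22 these are prp17 (-0.25 ± 0.10, groups not overlapping), slu7 (-0.07 ± 0.11) and prp18 (-0.03 ± 0.11). Groups did not overlap in 36.5% of all transcripts. The only junction of prp18 was called lower. It read -0.12, -0.09 and -0.22 at 37 °C and 0.32, 0.19 and 0.59 at 16 °C, a difference of -0.51 ± 0.13 (adjusted p = 0.0485).

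Among other splicing lists, smb1, which encodes an Sm core protein of the snRNPs, was the 1 called gene of 15 in the Sm and Lsm list, lower at -0.50 ± 0.10 (adjusted p = 0.0117). Of 17 genes for branch site recognition and SR-like proteins, 2 were higher. srp2, the gene of an SR-type splicing factor, read 0.03, 0.09 and -0.07 at 37 °C and -0.74, -0.40 and -0.76 at 16 °C (0.65 ± 0.16, adjusted p = 0.0357), and sap114, a protein associated with the U2 snRNP, differed by 0.46 ± 0.11 (adjusted p = 0.0281). No transcript of the U1 snRNP (9 genes), the tri-snRNP (9 genes) or the Prp19-associated and Cwf proteins (30 genes) was called, with 1 (11.1%), 4 (44.4%) and 3 (10%) of them at an unadjusted p under 0.05 by limma. The genes mutated elsewhere in the series, usp107 (-0.34 ± 0.18), pht1 (0.10 ± 0.14) and swr1 (0.25 ± 0.15), were not called, and without replicate 3 of 16 °C pht1 read -0.02. Of the mating lists, 0 of 11 genes specific to M cells, 0 of 5 specific to P cells and 0 of 15 shared mating genes were called, with 1, 0 and 2 at an unadjusted p under 0.05 by limma, beside the 2.07% of all transcripts called. In such bulk RNA, fewer cells of a type and less RNA per cell cannot be told apart.

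Of the 4651 junctions, 19 were higher and 19 lower at 37 °C (0.817% of all junctions), in 37 genes, and 565 had an unadjusted p under 0.05. The departure from wild type was larger at 16 °C in 37 of the 38 (97.4%, against 73.9% of all junctions), and the calls rest on these same values. The largest increases were in ribosomal protein genes. The junction of rpl31 read 0.30, 0.15 and 0.51 at 37 °C and -1.64, -0.84 and -1.05 at 16 °C, a difference of 1.5 ± 0.29 (adjusted p = 0.0117), and its exon feature differed by 1.02 ± 0.30 (adjusted p = 0.0769). The junction of rpl35 read 0.06, -0.23 and 0.22 at 37 °C and -1.74, -1.13 and -1.46 at 16 °C, a difference of 1.46 ± 0.27 (adjusted p = 0.00508), and its exon feature differed by 0.42 ± 0.32 (adjusted p = 0.58).

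Further large increases were in myr1, rpp103, ubc4 (both junctions), cdc4, rpb10 and tim13, at 0.74 to 1.08. cdc4 encodes a light chain of the myosin of the contractile ring, rpb10 a small subunit of the RNA polymerases and tim13 a part of the machinery that imports proteins into mitochondria. Junction 4-5 of cdc4 read 0.05, 0.03 and 0.07 at 37 °C and -0.71, -0.55 and -1.0 at 16 °C (adjusted p = 0.00508), while its exon feature differed by -0.17.

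The largest decrease was that of junction 4-5 of tho4, a subunit of the THO complex, which couples transcription to mRNA export. It read -0.25, -0.07 and -0.20 at 37 °C and 0.91, 0.98 and 1.0 at 16 °C, a difference of -1.13 ± 0.21 (adjusted p = 0.00508). The other 3 junctions of tho4 differed by 0.07, 0.04 and -0.23 and its exon feature by 0.10, none of them called. Junction 1-2 of crb3, a subunit of the rixosome, read -0.34, -0.25 and -0.64 at 37 °C and 0.61, 0.53 and 0.74 at 16 °C, a difference of -1.04 ± 0.17 (adjusted p = 0.00248), with 0.13 for its other junction and 0.05 for its exon feature. In both genes 1 feature was set apart from the rest of its transcript.

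The 8 further members of the 10 largest decreases were rpp40, an RNase P subunit gene, pdc2, thf1, rrp17, bet4, alp31, rsm27 and the gene of the alpha subunit of the signal recognition particle receptor, at -0.92 to -0.65. Junction 2-3 of this receptor gene read -0.15, -0.10 and -0.01 at 37 °C and 0.63, 0.68 and 0.72 at 16 °C (difference -0.76 ± 0.14, adjusted p = 0.00508), while its other junction differed by 0.06 and its exon feature by -0.03. In the 19 lower junctions the exon feature was above 0 in 10 and below 0 in 9, and in the 19 higher ones it was above 0 in 12 of the 19. Leaving out 1 array at a time left 2 to 31 called junctions, with 2 without replicate 1 of 37 °C, 9 and 11 without replicates 3 and 2 of 37 °C, and 15 and 23 without replicates 1 and 2 of 16 °C. Only the junctions of crb3 and pup2 were called in all 6 fits.

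The splicing index was lower at 37 °C for 47 introns and higher for 15, together 1.29% of 4821 introns, in 52 genes. The arrays of the temperatures did not overlap in 60 of these 62 and in 29.8% of all introns. The calls rest on these same values, so this is a description and not separate support. Of all introns, 704 had an unadjusted p under 0.05. Over all introns the median difference was -0.08, with median indices of 0.03 at 37 °C and 0.11 at 16 °C. Of the 62 called indices, 55 were farther from 0 at 16 °C (88.7%, against 73.4% of all introns), again by the values used for the calls. The 47 lower indices had a median of -0.09 at 37 °C and 0.79 at 16 °C.

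Of the 47 lower indices, 20 had the larger shift in the intron (42.6%, against 45.1% of all introns) and 27 in the exon. The 10 largest decreases were mostly carried by the exon. In SPAC1F12.06c, pci2 (introns 2, 3 and 4) and grx1 (introns 1 and 3) the differences of the index were -1.96 to -1.28, while those of the intron features were -0.21 to 0.04. The index of rpa43 intron 2 was also among the 10, at -1.02. The exon feature of grx1, which encodes a glutaredoxin, read 0.11, 0.17 and 0.78 at 37 °C and -1.77, -0.83 and -1.06 at 16 °C, and was not itself called (1.57 ± 0.51, adjusted p = 0.112). The 3 junctions of grx1 differed by 0.54, 0.76 and 0.66, each without overlap of the arrays, as in 29.3% of all junctions. None of the 3 was called.

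Ribosomal protein genes held 7 of the 47 lower indices and 0 of the 15 higher ones, in rps1901, rps1902, rpl3601, rpl3602, rps502 and rpp102 (2 introns). These are 7 and 0 of their 84 introns, while 0.975% of all introns were called lower and 0.311% higher. The 0 lies near the share called higher and is not read as a result. The index of rps1901 read 0.06, 0.18 and 0.16 at 37 °C and 1.32, 0.91 and 1.20 at 16 °C, a difference of -1.01 ± 0.20 (adjusted p = 0.0103). For rpl3602 the exon feature differed by 0.64 and the intron feature by -0.36. Of the 84 introns of these genes, 66 had an index difference below 0 (78.6%, against 61.8% of all introns), with a median of -0.27, beside an intron median of -0.00731.

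Of the 15 higher indices the exon feature moved more in 12. SPAC11E3.10 had 3 of them, at 1.15 to 1.30, with intron features that differed by -0.01 to 0.14 and an exon feature that differed by -1.16. Both indices of elp2 (0.61 and 0.81) and those of utp14 (0.76) and rex2 (0.82) also went with a lower exon feature that was called. The index of tho3 intron 1 was higher by 0.68 ± 0.17 (adjusted p = 0.0408), with an intron difference of 0.39 and an exon difference of -0.28. pmh1, which encodes a subunit of TFIIK, read 0.16, -0.02 and 0.18 at 37 °C and -1.20, -0.59 and -0.88 at 16 °C for intron 1, a difference of 1.0 ± 0.19 (adjusted p = 0.00904). Its intron feature differed by 0.42 and its exon feature by -0.58. The highest value, that of brf1 intron 2, rested on 2 arrays: its index read 0.24, 0.17 and -0.31 at 37 °C and -2.71, -2.94 and 0.30 at 16 °C, so that the groups overlapped.

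**Figure D5:**
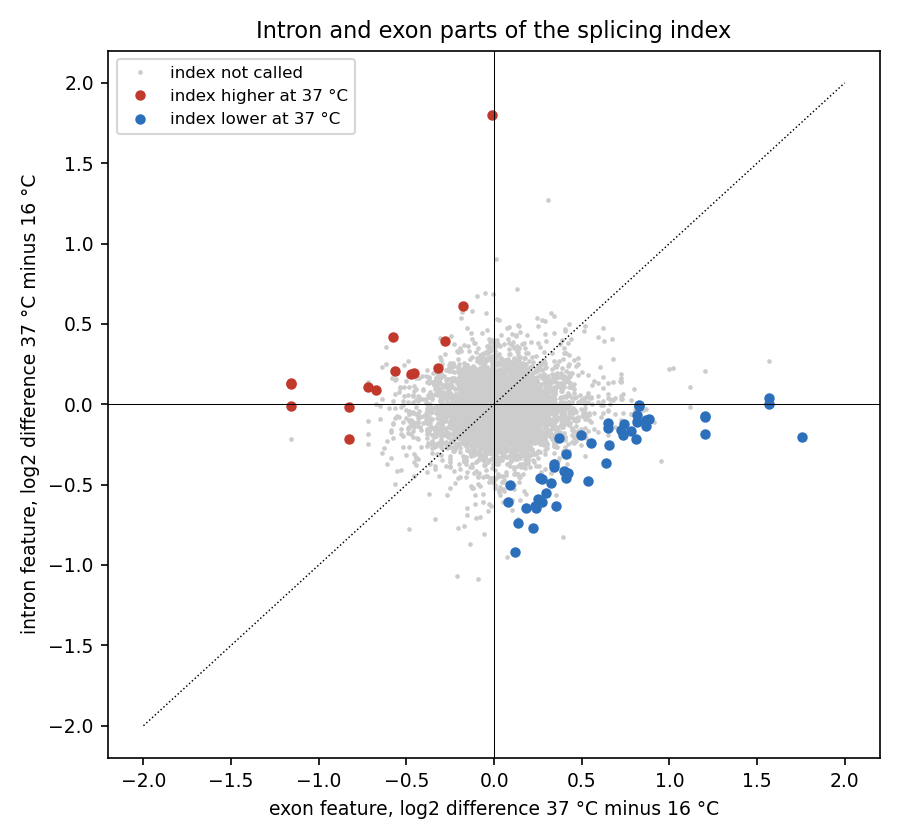
Difference of the intron feature (vertical axis) against that of the exon feature (horizontal axis) for every intron, both in log2 at 37 °C minus 16 °C, with called indices in colour and a dotted line where the index does not differ. Lower indices (blue) form a band from points near 0 on the horizontal axis with introns down to -0.92 to points near 0 on the vertical axis with exons up to 1.76, and the red point at the top is brf1 intron 2.

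The intron features themselves were called lower for 25 introns and higher for 3 (0.579% of 4836 introns, of which 0.062% higher and 0.517% lower, with 416 at an unadjusted p under 0.05). Of the 25 lower ones, 11 had a called index too, against 0.975% of all indices called lower. The index holds the intron feature itself, so this overlap is not separate support. A called exon feature occurred in 0 of the 25, which lies near the 2.07% of all transcripts called and is not read as a result. The 11 introns are shown because both the intron feature and the index were called lower. In urm1 and vam6 the exon feature differed nearly as much as the intron feature, at 0.41 and 0.34 against -0.46 and -0.39. Their sequences are those of the RefSeq annotation of ASM294v3, matched by gene and order of introns, since nothing states the build behind the array. The capitals mark the first 6 bases, the best match to the branch site and the last 3 bases.
ria1 intron 1 (III:290008-290062, plus strand): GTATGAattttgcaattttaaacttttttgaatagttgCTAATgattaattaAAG
psg2 intron 2 (III:528093-528189, plus strand): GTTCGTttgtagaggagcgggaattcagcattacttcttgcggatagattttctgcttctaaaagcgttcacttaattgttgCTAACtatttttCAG
atg7 intron 6 (II:2634693-2634733, minus strand): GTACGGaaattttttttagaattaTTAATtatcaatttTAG
cut9 intron 1 (I:1343115-1343167, minus strand): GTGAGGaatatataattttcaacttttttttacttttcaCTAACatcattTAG
utp22 intron 1 (II:3190985-3191035, minus strand): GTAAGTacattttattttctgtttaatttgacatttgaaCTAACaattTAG
rpb4 intron 1 (II:1055714-1055751, plus strand): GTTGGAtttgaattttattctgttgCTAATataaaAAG
hus1 intron 1 (I:4822488-4822535, minus strand): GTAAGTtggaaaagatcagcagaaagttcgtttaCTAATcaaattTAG
mtq2 intron 4 (I:3914791-3914837, minus strand): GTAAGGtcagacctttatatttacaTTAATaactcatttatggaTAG
sos7 intron 4 (I:1277271-1277312, plus strand): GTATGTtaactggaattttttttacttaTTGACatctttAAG
urm1 intron 2 (III:223604-223686, plus strand): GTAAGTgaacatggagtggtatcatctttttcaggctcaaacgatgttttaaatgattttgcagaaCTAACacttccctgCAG
vam6 intron 1 (I:1585326-1585370, minus strand): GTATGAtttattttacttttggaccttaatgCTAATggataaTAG

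Intron 1 of ria1, the gene of a GTPase, had the largest difference of the 25 lower intron features. The intron feature read -0.22, -0.08 and -0.17 at 37 °C and 0.80, 0.72 and 0.77 at 16 °C, a difference of -0.92 ± 0.16 (adjusted p = 0.011). The groups were far apart, and the exon feature differed by only 0.12 ± 0.15. The flanking junction differed by -0.12 ± 0.12, so that it did not mirror the intron, and intron 2 of the same gene went the other way, at 0.26 ± 0.17, without being called.

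Intron 1 of hus1, which encodes a subunit of the checkpoint clamp, read -0.12, 0.02 and -0.07 at 37 °C and 0.60, 0.53 and 0.52 at 16 °C, a difference of -0.61 ± 0.10 (adjusted p = 0.00813). Intron 6 of atg7, of the E1-like enzyme of autophagy, read -0.17, -0.07 and -0.10 at 37 °C and 0.51, 0.83 and 0.52 at 16 °C, a difference of -0.74 ± 0.14 (adjusted p = 0.0195). Intron 1 of rpb4, of an RNA polymerase II subunit, read -0.25, -0.09 and -0.15 at 37 °C and 0.47, 0.37 and 0.49 at 16 °C, a difference of -0.61 ± 0.14 (adjusted p = 0.0388). The introns of cut9 (a subunit of the anaphase-promoting complex, -0.65), utp22 (-0.63) and mtq2 (a methyltransferase of release factor eRF1, -0.51) were of like size. In all of these the intron lay above wild type on each 16 °C array.

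Another 14 intron features were lower without a called index. They include intron 1 of tea5, a protein kinase gene (-0.77 ± 0.15), and intron 2 of usp107, whose product belongs to the U1 snRNP (-0.71 ± 0.16, adjusted p = 0.0432). The usp107 intron read -0.14, 0.02 and -0.26 at 37 °C and 0.64, 0.42 and 0.71 at 16 °C. In bet4, a subunit of the enzyme that prenylates Rab proteins, intron 2 (-0.49 ± 0.11) and junction 2-3 beside it (-0.70 ± 0.14) were both called lower, and this was the 1 flanking junction of the 25 that was called. The junction that flanks a lower intron was above 0 in 12 and below 0 in 13. The 3 higher ones were those of SPAC23D3.13c intron 3 (0.61), brf1 intron 2 and rpl22 intron 1, which read 0.25, 0.41 and 0.52 at 37 °C and -1.21, -0.74 and -0.70 at 16 °C (1.27 ± 0.30, adjusted p = 0.0479).

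The called introns had no single sequence feature in common. Of 4305 introns that could be scored, the 5′ site GTAAGT was carried by 1216 and the branch match CTAAC by 1974 (45.9%). Among the 18 scored lower indices in which the intron moved more, CTAAC occurred in 5 and CTAAT in 8, against 23.6% CTAAT among all. Of the 25 called intron features that could be scored, 15 fell in the shortest of 3 length classes (35 to 49 bases), which holds 33.9% of the introns, 7 in the middle one and 3 in the longest. The lower introns with a length had a median of 47 bases, against 56 over all. By the 5′ site, 12 of the 25 were in the weakest class (34.5% of introns) and 5 in the strongest (28.2%). Introns were placed in these classes after the calls were known, and shares were not tested.

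No called intron feature held in all 6 fits that left out 1 array. The counts were 0 without replicate 1 of 37 °C, without replicate 3 of 37 °C and without replicate 1 of 16 °C (270, 371 and 283 at an unadjusted p under 0.05 by limma), and 4, 9 and 14 without the others. For the index the counts were 3 to 50, lowest without replicate 1 of 37 °C (3), replicate 1 of 16 °C (4), replicate 3 of 37 °C (5) and replicate 2 of 37 °C (14), and only introns 2 and 4 of pci2 held in all 6. Where junction features replaced the exon feature in the index, 3 introns were higher and 19 lower, and the indices of SPAC11E3.10 intron 3 and elp2 intron 2 turned to -0.07 and -0.09. Of these 22 introns, 7 were among the 62 called against the exon feature, and 4 of the 62 took the other sign.

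The called features were then read in the related groups, each set against its own wild-type RNA. These features were picked by the difference among the prp16DAmP arrays themselves, so their medians are a description and not separate support. Over all transcripts at 16 °C medians were -0.07 to -0.04 in pht1∆ prp16DAmP, -0.08 to -0.03 in prp16DAmP and -0.02 to -0.001 in pht1∆. Over all introns at 16 °C they were 0.03 to 0.05, 0.04 to 0.07 and 0.02 to 0.08 in the same order. The 57 higher transcripts had medians of 0.02 to 0.07 over the 3 arrays of prp16DAmP at 37 °C. In the other groups at 37 °C they had -0.23 to 0.01 in swr1∆ prp16DAmP and -0.05 to 0.20 in swr1∆. At 16 °C they had medians of -0.59 to -0.33 in pht1∆ prp16DAmP, against -0.66 to -0.55 in prp16DAmP and 0.05 to 0.09 in pht1∆. The 48 lower transcripts had medians of -0.24 to -0.11 in prp16DAmP at 37 °C. In the other groups at 37 °C they had -0.19 to 0.11 in swr1∆ prp16DAmP and -0.12 to 0.01 in swr1∆. They had 0.27 to 0.38 in pht1∆ prp16DAmP, 0.38 to 0.43 in prp16DAmP and -0.09 to 0.02 in pht1∆ at 16 °C. The 25 lower intron features had medians at 37 °C of -0.13 to -0.0006 in prp16DAmP and -0.36 to -0.01 in swr1∆ prp16DAmP. In swr1∆ at 37 °C they had -0.19 to 0.03. At 16 °C they had 0.04 to 0.26 in pht1∆ prp16DAmP, 0.47 to 0.50 in prp16DAmP and -0.03 to 0.01 in pht1∆. The arrays of pht1∆ at 16 °C are among those on which exon and junction features correlated well, and those of the double mutant are not; the part of this in the difference was not tested.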

How the data were processed

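The data were a table of log ratios of Cy5 over Cy3 on Agilent 2-colour arrays, which the authors deposited as log values, read here as log2. How background, normalization and probes were handled, and the build of the array design, is stated in no label or header, and intensities were not used. Groups and dyes came from the labels. The table held 14556 features of 5081 genes. Of these genes, 4806 matched the ASM294v3 annotation by locus tag and 200 by synonym, and 75 did not match. Introns were placed where the numbers of introns agreed.

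Differences were fitted over all 30 arrays by lmFit and eBayes of limma 3.58.1 (R 4.3.3, two-sided) with 1 mean per group, after a test on simulated data. The members and gene lists were chosen with earlier results of these data known, and RNase P subunits whose symbols resemble those of ribosomal proteins were taken off that list by their annotation. The text names the 10 largest called differences with non-overlapping arrays each way for transcripts, junctions and indices, up to 6 called introns each way with an exon difference under 0.1, the mutated genes, all helicases and second-step factors, and up to 4 called members of each list. Some of the features that this rule picks are not reported here. Other names were chosen after their values were seen. Alternatives were fewer arrays, a replicate block, scaling, centring, weights, a robust prior, filters and other index references. The number of arrays limits the precision.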

Additional observations from a re-analysis of the deposited data

Results flagged for a closer look

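Among the features with the largest called differences, those named here lay on opposite sides of wild type on every array, above it at one temperature and below it at the other, with the difference itself called by limma at an adjusted p of at most 0.05. The transcripts that were above wild type at 37 °C and below it at 16 °C were SPAC1F12.06c (1.76), hsp9 (1.55), pci2 (1.21) and rpl3201 (1.18). Those below wild type at 37 °C and above it at 16 °C were mcm3 (-1.23), SPAC11E3.10 (-1.16), rud3 (-1.09), prz1 (-0.87), set8 (-0.87), tms1 (-0.86), mug68 (-0.85), elp2 (-0.83) and pdp3 (-0.75).

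Among junctions, rpl31 1-2 (1.5), myr1 3-4 (1.08), ubc4 1-2 (1.02) and cdc4 4-5 (0.80) were above wild type at 37 °C and below it at 16 °C. The junctions tho4 4-5 (-1.13), crb3 1-2 (-1.04), rpp40 1-2 (-0.92), pdc2 3-4 (-0.81), thf1 1-2 (-0.79), junction 2-3 of the signal recognition particle receptor alpha subunit gene (-0.76), rrp17 1-2 (-0.76), alp31 2-3 (-0.67) and rsm27 1-2 (-0.65) lay the other way round.

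Among indices, those of SPAC11E3.10 introns 2, 3 and 4 (1.29, 1.15 and 1.30), elp2 intron 2 (0.81), SPAC23D3.13c intron 3 (0.79) and bet4 intron 6 (0.78) were positive at 37 °C and negative at 16 °C. Those of SPAC1F12.06c intron 1 (-1.96), grx1 introns 1 and 3 (-1.57 and -1.53), pci2 introns 2, 3 and 4 (-1.28, -1.28 and -1.39) and ria1 intron 1 (-1.04) were negative at 37 °C and positive at 16 °C. Arrays of opposite sign made up 9.13% of all transcripts, 6.64% of all junctions and 6.41% of all indices. The named features were picked by these same values, so these shares are a description.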

How the results depend on the processing

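The counts moved with the setting more than the directions did. Called transcripts (105) became 541 in a fit on only the 6 arrays, 284 after scaling to equal spread, 1584 with array weights and 59 at a difference of at least 1.5-fold, and leaving out 1 array gave 10 to 92. Called junctions (38) became 246, 138 and 548 under the first 3 of these settings and 20 without features of high SD between replicates (56 indices and 34 introns), with 2 to 31 when 1 array was left out. Called indices (62) became 170, 159 and 628, then 22 against junction features and 30 against the mean of exon and junction features, with 3 to 50 when 1 array was left out. Called intron features (28) became 48, 46 and 176, 52 after centring and 17 at 1.5-fold, with 0 to 14 when 1 array was left out. It is not known here whether the replicate numbers pair the samples. Deviations of the same number correlated with r = 0.021, 0.036 and 0.068, and those of different numbers with r = -0.112 to 0.0967. With a replicate block in the fit over all arrays 52 transcripts, 35 junctions, 55 indices and 13 introns were called, and with a replicate block on the 6 arrays alone 352, 54, 191 and 0, with 797 introns at an unadjusted p under 0.05. Of the single features named, 10 values changed sign, none of them called in the setting concerned: prp16 without replicate 1 or 2 of 16 °C (0.03 and 0.13), prp43 scaled, centred or without replicate 2 of 16 °C (-0.13, -0.000163 and -0.0213), uap56 scaled or without replicate 1 of 16 °C (0.0555 and 0.00904), pht1 without replicate 3 of 16 °C (-0.0217), and against junction features SPAC11E3.10 intron 3 (-0.0662) and elp2 intron 2 (-0.0901). Over the fits without 1 array, the ranges were -0.295 to 0.13 for prp16, -0.0213 to 0.143 for prp43, -0.210 to 0.00904 for uap56 and -0.0217 to 0.252 for pht1. The median of the ribosomal proteins was 0.30 without features of high SD. The cause was not tested. If the deposited logs are natural ones, all sizes scale by 1 common factor.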
